A study of Homo sapiens with 55 samples.

Results

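Splicing was compared between K562 cells carrying the SF3B1 K700E knock-in and K562 cells with wild-type SF3B1 (WT), all of which carried a guide RNA against GPATCH8. K562 is an established human erythroleukemia line. The libraries were chosen by their labels alone: K700E with sgGPATCH8 (guides 16 and 17) against WT with sgGPATCH8 (guides 16 and 17), 2 libraries against 2. The labels give 2 sequencing runs for each guide and genotype, which are counted here as 1 library and averaged. These 4 libraries thus correspond to 8 of the 55 samples of the series. Whether the 2 runs repeat 1 library preparation or come from separate ones is not stated in the labels. The same cells with a guide against SUGP1 (2 K700E and 2 WT libraries) or with sgRenilla, a guide to a luciferase sequence that human cells lack (1 K700E and 1 WT library), serve below only to show where the sgGPATCH8 libraries differ. The question addressed is which splicing differences between K700E and WT cells are seen when GPATCH8 is targeted in both. The labels do not say whether a line was 1 clone, and the files hold isoform fractions and no gene levels, so the loss of GPATCH8 itself could not be checked.

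SF3B1 is the largest subunit of the SF3b complex of the U2 snRNP, which recognises the branch point of an intron before the 3′ splice site is chosen. K700E is its most frequent mutation in myelodysplastic syndromes with ring sideroblasts, and it is known for the use of cryptic 3′ splice sites that lie a short distance upstream of the normal site. SUGP1 is a G-patch protein whose binding to SF3B1 is weakened by this mutation, and GPATCH8 is another protein with a G-patch domain, the motif through which such proteins activate DEAH-box helicases of the spliceosome.

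The unit throughout is usage, the percentage of an event's isoforms that is the isoform listed first. For an alternative 3′ splice site that is the isoform made at the upstream site, and for an alternative 5′ splice site the one made at the downstream site. For a skipped exon it includes the exon, for a retained intron it is the spliced form, and for tandem 3′ untranslated regions (3′ UTRs) it has the shorter 3′ UTR. A sequence shows what the choice of a site adds to the RNA, so sites on which the results turn are printed here from GENCODE 29 transcripts. Capitals mark the bases between the upstream and the downstream 3′ splice site, which are kept in the RNA when the upstream site is used. In the first 4, the lower-case bases before the capitals are the end of the intron and those after them the start of the exon at the downstream site. The first 3 gained use of the upstream site in K700E cells and MTERF2 lost it.
ORAI2: gcagCGTTTCTCTGAATTCTCCCCAAGgga
TMEM14C: acctctgatccagCTTGTTTTCTGCAGgtg
DYNLL1: ccccttaccccagGCCTTGCCCACTAGgta
MTERF2: aaaatgccattggcaagTTTATTGCAGgga

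For the next 5 the transcripts hold no intron, and the lower-case bases before the capitals are the end of the upstream exon. The first 3 of them gained use of the upstream site in K700E cells, and ZNF561 and ENOX2 lost it.
GEN1: ttgtccggTGTGTTTCACATAACAGcag
BRD9: ctctctggTTTCTTTCAGggc
PGBD1: ataccagATCTCTATTTCTGAATATAGacc
ZNF561: gtcccgtgGGTTTTTTTCCAGgga
ENOX2: ggaatcagCCTTAGtat

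Sequence between the sites was found for 16 of the 19 alternative 3′ splice sites sought. In all 16 it ended in AG, the dinucleotide that ends nearly every intron. These last bases belong to the downstream site, so the count was all but fixed in advance and does not describe the upstream site. In TMEM14C 10 of the 14 bases between the sites were pyrimidines, and in BRD9 8 of 10. Among the other sites printed it was 16 of 23 in ORAI2, 9 of 14 in DYNLL1, 9 of 17 in GEN1 and 12 of 20 in PGBD1, all of which gained use in K700E cells, and 6 of 10 in MTERF2, 9 of 13 in ZNF561 and 4 of 6 in ENOX2, which lost it. The shares of both kinds overlapped.

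Of 50823 events tested, 346 were called (0.681%), with an adjusted p under 0.05 by limma and a difference of at least 5 percentage points. Usage rose in K700E cells in 156 events (0.307%) and fell in 190 (0.374%). Tandem 3′ UTR events made up 93 of the calls and are described separately, because their usage differed between sequencing runs in some libraries. Among the other 253 calls (0.519% of 48753), 155 rose (0.318%) by a median of 24.25 points and 98 fell (0.201%) by a median of 23.5 points. They lay in 199 named genes. As a description of the events so chosen, the median rise was 22.5 points for guide 16 and 24 points for guide 17, and 23 points in run 1 and 21 points in run 2.

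The error behind these calls comes from all 10 libraries of K700E and WT cells, which shared 1 estimate of the spread. With only the 4 sgGPATCH8 libraries in the fit no event passed the limma threshold, although 7421 events had an unadjusted p under 0.05, and leaving out any of the 4 libraries also left no call. Of the 155 rises, 137 had a value in all 8 runs, and in 125 of these every K700E run lay above every WT run, which was the case in 4.19% of 44794 events overall. Of the 98 falls, 91 had all 8 values, and in 76 every K700E run lay below every WT run, against 2.72% of events overall. The events were chosen from the averages of these same runs, so these counts describe them and give no independent support. The 2 libraries of each sgGPATCH8 or sgSUGP1 group carried different guides, and the labels name no repeat of the K700E or the WT line. The p-values thus measure the spread between these libraries, guide differences included, part of which may be technical. They do not measure a spread between independent K700E and WT lines.

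Alternative 3′ splice sites gave 89 calls (0.71% of those tested), of which 62 rose and 27 fell. Skipped exons gave 96 calls (0.412%), with 59 exons included more and 37 included less in K700E cells. Retained introns gave 30 (0.76%), with 17 spliced more and 13 spliced less. Alternative 5′ splice sites gave 24 (0.482%), with 9 up and 15 down, and mutually exclusive exons gave 14 (0.349%), with 8 up and 6 down. More use of the upstream site was thus the direction of most called 3′ splice sites. At called 5′ splice sites the downstream site was used less in 15 events and more in 9.

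Among 3′ splice site events with exactly 2 sites, the rises were concentrated at 1 spacing. Events with 3 or more sites, ORAI2 and PPOX among them, are left out of the spacing classes. Of 668 such events tested, 16 rose and 4 fell. Where the paired sites lay 10 to 30 nucleotides apart, the upstream site was used more in K700E cells in 30 of 1283 tested events (2.34%) and less in 5 (0.39%). At a spacing of 3 nucleotides, by far the most common, 8 of 6560 events rose and 8 fell (0.122% each). From 31 to 150 nucleotides, 6 of 2378 rose and 6 fell (0.252% each). The 30 sites spanned 10 to 29 nucleotides with a median of 15, and 27 of them lay 12 to 24 nucleotides upstream. Their median rise was 24.38 points. In 17 of the 30 the spacing was not a multiple of 3, so that use of the upstream site shifts the reading frame where it lies in coding sequence; among all tested pairs at this spacing the share not a multiple of 3 was 54.9%.

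**Figure D1:**
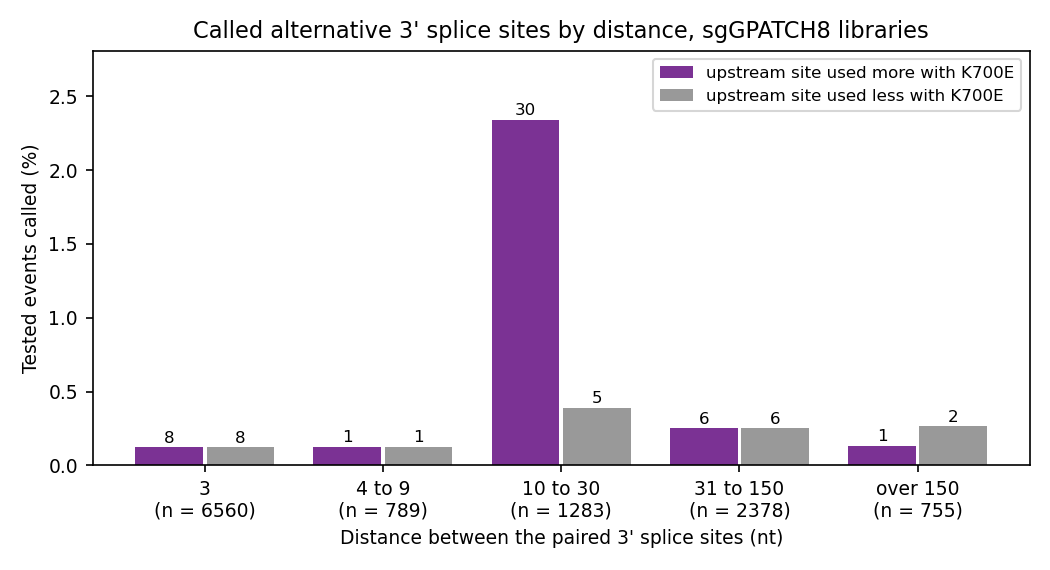
Percentage of tested alternative 3′ splice site events with exactly 2 sites that were called between K700E and WT cells with sgGPATCH8 (y axis), by the distance between the sites in nucleotides (x axis). Purple bars show more and grey bars less use of the upstream site in K700E cells, with the number of events above each bar; the bar for rises at 10 to 30 nucleotides stands at 2.34%, against at most 0.39% for every other bar.

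The same 30 sites had a median K700E-minus-WT difference of 23.75 points in the sgRenilla libraries and of 5.625 points in the sgSUGP1 libraries. These libraries entered the calls through the shared spread and through the choice of events to test, but not through the difference between K700E and WT itself. The difference was above 0 in 30 of 30 sites with sgRenilla and in 29 of 30 with sgSUGP1.

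Genes already known to be mis-spliced with mutant SF3B1 held 31 of the calls. Of 30 such genes with a tested event, 18 had at least 1 call, 14 of them with a rise and 6 with a fall. By event, 31 of 223 were called (13.9%), 24 up and 7 down, against 0.681% of all events, and their median difference was 1 point, against 0 points over all events. Several calls of a gene share a junction, as in SEPT6 with 4 and MTERF2 with 5. These genes were listed from what is known of SF3B1 mutation in other samples, and with earlier results of these data in view.

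**Figure D2:**
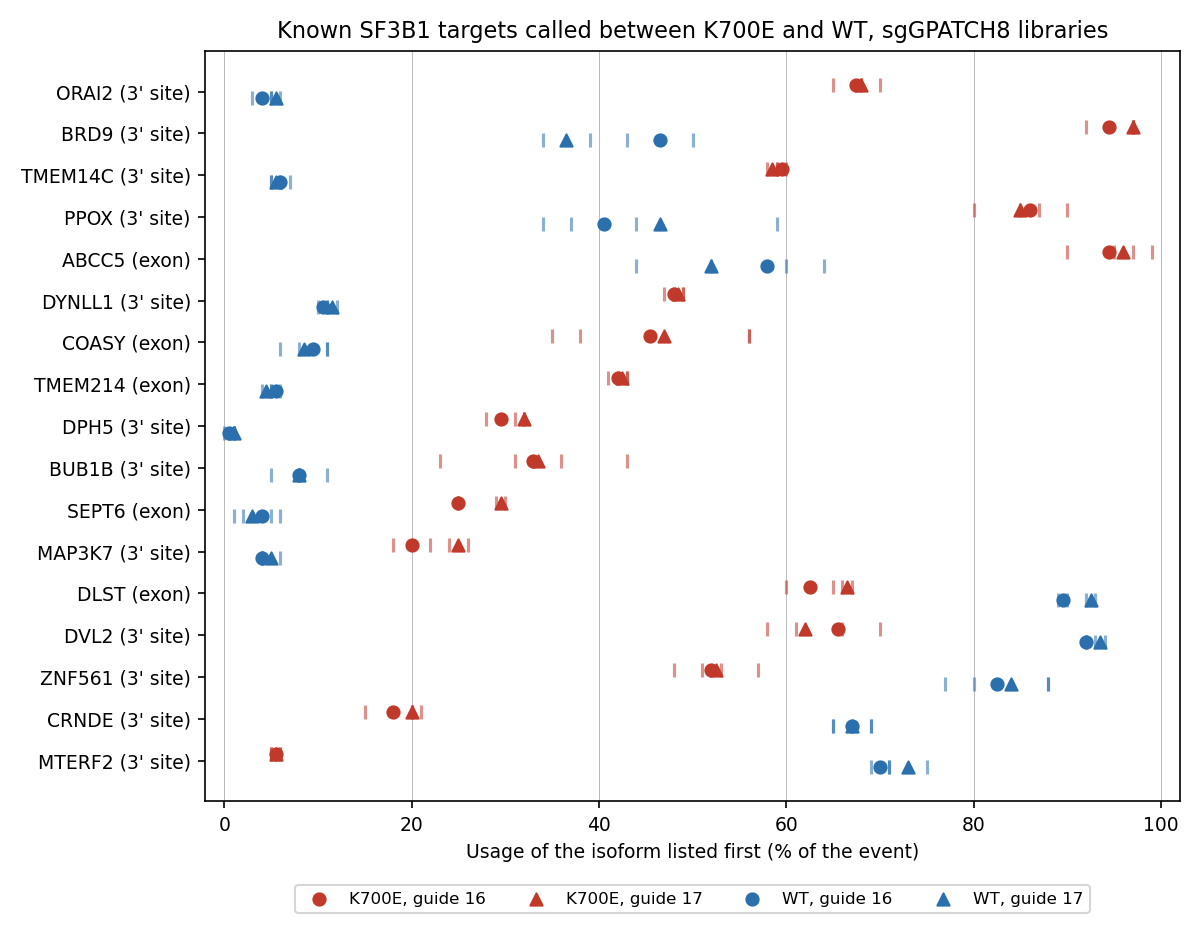
Usage of the isoform listed first, in percent of the event (x axis), for 17 called events in known SF3B1 target genes (rows). Red marks are K700E and blue marks WT libraries with sgGPATCH8, circles and triangles are the means of guide 16 and guide 17 over both sequencing runs, and ticks are single runs; no K700E mark overlaps a WT mark of the same event, and TMEM14C stands near 59% in K700E against 6% in WT.

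Both listed targets that act in heme synthesis, TMEM14C and PPOX, used an upstream 3′ splice site more in K700E cells. TMEM14C is a mitochondrial membrane protein needed for the import of protoporphyrinogen, and its upstream site lies 14 nucleotides before the downstream one (hg19, chr6, junction from 10723474 to 10724789 in place of 10724803). Use of that site was 59.5% and 58.5% in K700E libraries, against 6% and 5.5% in WT libraries. The change was 4.33 ± 0.31 (SE) in the log2 ratio of used to not used, with an adjusted p of 0.017 by limma. PPOX, protoporphyrinogen oxidase, acts on the molecule that TMEM14C helps to import. Its upstream site was used at 86% and 85% in K700E libraries, against 40.5% and 46.5% in WT libraries (log2 ratio 2.85 ± 0.34 SE, adjusted p = 0.037 by limma). The groups did not overlap at either gene, but the WT level differed widely between them. Another called PPOX event with the same upstream site averaged 44.75% in K700E, against 18.25% in WT libraries. The level of PPOX thus depends on which set of sites is counted.

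ORAI2, a subunit of store-operated calcium channels, had the largest rise among the listed targets. Its most upstream site was used at 67.5% and 68% in K700E libraries, against 4% and 5.5% in WT libraries (log2 ratio 5.13 ± 0.34 SE, adjusted p = 0.015 by limma). DYNLL1, a light chain of the dynein motor, stood at 48% and 48.5% in K700E libraries, against 10.5% and 11.5% in WT libraries. In DPH5, a methyltransferase of diphthamide synthesis, the upstream site was all but unused in WT libraries, at 0.5% and 1%, while K700E libraries had 29.5% and 32%. BUB1B encodes the spindle checkpoint kinase BUBR1 and had 33% and 33.5% in K700E libraries, against 8% in both WT libraries. All 4 rises passed the limma threshold, with adjusted p from 0.015 to 0.025. Averaged over their runs, the libraries of a group lay within 3 points of each other. The single runs of BUB1B in K700E libraries spread more widely, with 23% and 31% in run 1 and 43% and 36% in run 2.

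BRD9, a bromodomain subunit of the non-canonical SWI/SNF complex, had 2 called events at the same place (hg19, chr5). Inclusion of an exon there was 60% and 58% in K700E libraries, against 13% and 9.5% in WT libraries. The upstream of the 2 sites that open this exon, 10 nucleotides from the other, was used at 94.5% and 97% in K700E libraries, against 46.5% and 36.5% in WT libraries. Adjusted p by limma was 0.026 for the exon and 0.019 for the site. These are the only BRD9 events called among 19 tested, and they share a junction.

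Exons included more in K700E cells were found in 4 further targets. COASY, which makes coenzyme A, had 45.5% and 47% inclusion in K700E libraries, against 9.5% and 8.5% in WT libraries, although its K700E values differed between runs, with 35% and 38% in run 1 and 56% in both libraries in run 2. TMEM214, a membrane protein of the endoplasmic reticulum, had 42% and 42.5% in K700E libraries, against 5.5% and 4.5% in WT libraries. ABCC5, an ATP-driven exporter, reached 94.5% and 96% in K700E libraries, against 58% and 52% in WT libraries. SEPT6, a septin of the cytoskeleton, had 25% and 29.5% in K700E libraries, against 4% and 3% in WT libraries. Adjusted p by limma lay between 0.014 and 0.027 for these exons.

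In MTERF2, of the mitochondrial transcription termination factor family, the change ran the other way and was the largest fall outside tandem 3′ UTRs. Its upstream site, 10 nucleotides from the downstream one, was used at 5.5% in both K700E libraries, against 70% and 73% in WT libraries (log2 ratio -5.18 ± 0.25 SE, adjusted p = 0.012 by limma). The intron ending at these sites was spliced more in K700E cells in the same gene, at 96.75% on average for the downstream site, against 67% in WT cells. CRNDE, a long non-coding RNA, had 18% and 20% upstream-site use in K700E libraries, against 67% in both WT libraries. DVL2, a Wnt signalling protein, had 65.5% and 62% in K700E libraries, against 92% and 93.5% in WT libraries, at sites 72 nucleotides apart. ZNF561, a zinc-finger protein, had 52% and 52.5% in K700E libraries, against 82.5% and 84% in WT libraries. DLST, the E2 component of 2-oxoglutarate dehydrogenase, lost an exon, with 62.5% and 66.5% inclusion in K700E libraries, against 89.5% and 92.5% in WT libraries. Each of these falls passed the limma threshold.

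Of the listed targets, 12 had no call. ZDHHC16, a palmitoyltransferase, had 21% and 26.5% in K700E libraries, against 10.5% and 9.5% in WT libraries, with an adjusted p of 0.062 by limma. ANKHD1, ARMC9, ENOSF1 and PPP2R5A had adjusted p from 0.053 to 0.088, with differences of -17.25, -14, 16.25 and -10.5 points. SERBP1, an mRNA-binding protein, is among the 18 genes with a call. Its called event was an upstream 3′ splice site, 18 nucleotides from the other, which rose to a mean of 78.25% in K700E, against 54.75% in WT libraries (adjusted p = 0.043 by limma). Its event of lowest p, a 5′ splice site, missed the call only on size, with 4% and 3% in K700E libraries, against 0% in both WT libraries.

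MAP3K7, the kinase TAK1 of NF-κB and stress signalling, was also called. The upstream site, 20 nucleotides from the other, was used at 20% and 25% in K700E libraries, against 4% and 5% in WT libraries, a difference of 18 points (adjusted p = 0.043 by limma). In the sgRenilla libraries the same site was used at 63% in K700E and 9.5% in WT cells. The K700E effect with sgGPATCH8 minus that with sgRenilla was -35.5 points, and the test of that difference gave an adjusted p of 0.46 by limma with 1 sgRenilla library of each genotype. For ZDHHC16 the same difference was -13.25 points, with an adjusted p of 0.61. For the 31 called target events as a whole, the effect was smaller than with sgRenilla in 15 and larger in 15, and no listed target passed the test of the difference, the lowest adjusted p being 0.35.

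Against sgSUGP1, all 31 target events had a larger K700E effect with sgGPATCH8, by a median of 22 points. Yet none passed the limma test of the difference (lowest adjusted p 0.072, in COASY). The 31 events were chosen by their difference with sgGPATCH8, which favours a larger effect there, here and in the comparison with sgRenilla. At TMEM14C and BRD9 the WT sgSUGP1 libraries themselves had high usage of the upstream site. In TMEM14C the upstream site was used at 72% and 75.5% in K700E sgSUGP1 libraries, against 51.5% and 66.5% in WT sgSUGP1 libraries. In BRD9 the upstream site was used at 98% and 96.5% in K700E sgSUGP1 libraries, against 97.5% and 96% in WT sgSUGP1 libraries. WT cells with sgGPATCH8, at 6% and 5.5% for TMEM14C, lay near the 5% of the WT sgRenilla library instead.

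Beyond the listed targets, the largest rise was in GEN1, a resolvase of Holliday junctions in homologous recombination. Its upstream site, 17 nucleotides from the other (hg19, chr2, junction from 17935612 to 17941179 in place of 17941196), was used at 93.5% and 94.5% in K700E libraries, against 20% and 23% in WT libraries (log2 ratio 5.59 ± 0.48 SE, adjusted p = 0.019 by limma). The sgRenilla libraries had 93% in K700E and 18.5% in WT cells. GSN, the actin-severing protein gelsolin, had a site 9 nucleotides upstream used at 81.5% and 80% in K700E libraries, against 17% and 26.5% in WT libraries, the first of these from run 2 only. PGBD1, derived from a piggyBac transposase, stood at 86.5% and 92% in K700E libraries, against 40% and 45.5% in WT libraries. STAU2, a double-stranded RNA-binding protein, included an exon at 82.5% and 76.5% in K700E libraries, against 35.5% and 30.5% in WT libraries. These rises had adjusted p from 0.018 to 0.040 by limma, and in the sgRenilla libraries the same events differed by 49.5 to 74.5 points.

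Other large changes were small or of the opposite sign in the sgRenilla pair. With sgSUGP1, K700E minus WT was 17.5 points in SPOCD1, 24.25 in IL16, 8 in ATP13A1 and 4 in STK3. There SPOCD1 and IL16 kept the direction seen with sgGPATCH8, and ATP13A1 and STK3 did not. An exon of SPOCD1 was included at 70% and 79.5% in K700E libraries, against 17% and 15% in WT libraries, of which guide 17 had a value in run 2 only, while both sgRenilla libraries had 57%. An exon of the cytokine gene IL16 was included at 70% and 53% in K700E libraries, against 15.5% and 14% in WT libraries, while sgRenilla had 13% in K700E and 14.5% in WT cells. Each K700E value of IL16 rests on 1 run, that of guide 16 on run 1 and that of guide 17 on run 2. In ATP13A1, a transporter of the endoplasmic reticulum, the upstream of 2 sites 3 nucleotides apart fell to 47% and 52.5% in K700E libraries, against 89% and 92.5% in WT libraries, whereas the sgRenilla pair had 80% in K700E and 74% in WT cells. In STK3, the Hippo pathway kinase MST2, a site at the same spacing had 8.5% and 19% in K700E libraries, against 71% and 65% in WT libraries, and 67.5% in K700E against 46.5% in WT cells with sgRenilla. For STK3 the K700E library of guide 17 and the WT library of guide 16 had a value in run 2 only. The tests of these differences between guides gave adjusted p by limma of 0.20, 0.19, 0.098 and 0.14.

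Inclusion of an exon of AHNAK, a giant scaffold protein, fell to 21% and 14.5% in K700E libraries, against 83.5% and 76% in WT libraries. An exon of FGF13, an intracellular member of the fibroblast growth factor family, had 20.5% and 17% in K700E libraries, against 71.5% and 73% in WT libraries. FOXP1, a forkhead transcription factor, had 19% and 23.5% in K700E libraries, against 64% and 55% in WT libraries. In all 3 the sgRenilla and the sgSUGP1 pairs differed in the same direction, with differences of -24.75 to -52.5 points. ENOX2, a surface NADH oxidase, lost use of a site 6 nucleotides upstream, with 33% and 31% in K700E libraries, against 77.5% and 79% in WT libraries. Further sites of 3-nucleotide spacing fell in ECSIT, a protein of Toll-like receptor signalling and complex I assembly, to a mean of 18.2% in K700E against 69.5% in WT libraries, and in RAD52, a recombination protein, to 32.5% against 76%. Adjusted p by limma was at most 0.046 for all of these falls, and the run values of RAD52 in K700E cells spread widely, between 14% and 60%.

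Taking the sgGPATCH8 calls outside tandem 3′ UTRs to the other libraries, 142 of 155 rises had the same direction with sgRenilla, 127 of them by at least 5 points, with a median of 17.5 points. With sgSUGP1, 144 of 155 had the same direction and the median was 7 points. Of the 98 falls, 80 had the same direction with sgRenilla (median -9.25 points) and 83 with sgSUGP1 (median -6.25 points). For comparison, of all 15718 tested events that differed by 5 points or more with sgGPATCH8, 62.4% had the same direction with sgRenilla and 65.8% with sgSUGP1.

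**Figure D3:**
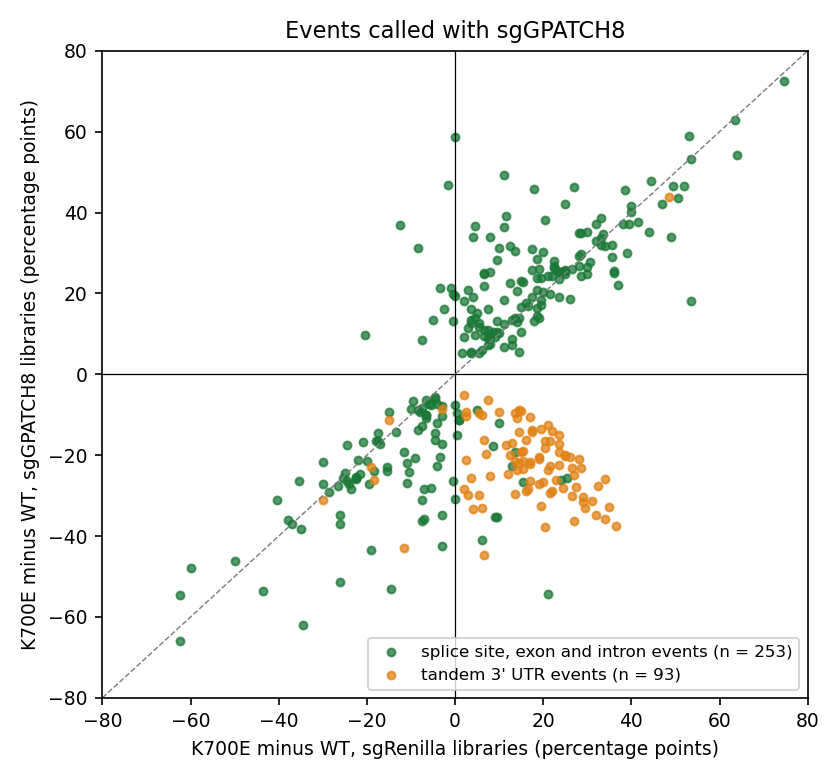
Difference in usage between K700E and WT, in percentage points, for the 346 events called with sgGPATCH8, in the sgGPATCH8 libraries (y axis) and in the sgRenilla libraries (x axis), each point being 1 event and the dashed line marking equal differences. Most splice site, exon and intron events (green, 253) lie in the quadrants of equal sign, whereas the tandem 3′ UTR events (orange, 93) lie mainly where the sign is opposite, with 6 of 92 falls sharing the sign.

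The other functional groups are read against the 0.681% called over all events. Of 133 tested events in genes of heme synthesis, mitochondrial iron and iron transport, 4 were called (3.01%), of which 2 were in PPOX and 1 in TMEM14C. The fourth was the tandem 3′ UTR of TFRC, the transferrin receptor. ALAD and UROD, enzymes of heme synthesis, and STEAP3, an iron reductase, had no call. ALAD exon inclusion was 56% and 56.5% in K700E libraries, against 75.5% and 72% in WT libraries (adjusted p = 0.069 by limma), and UROD had 15.5% and 15% in K700E libraries, against 24.5% and 23% in WT libraries (adjusted p = 0.10).

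Of 144 events of SWI/SNF subunits, 4 were called (2.78%): the 2 of BRD9, a retained intron of SMARCD3 and an exon of SMARCE1. The SMARCD3 intron was spliced out at 13% and 17.5% in K700E libraries, against 49.5% and 50.5% in WT libraries. The SMARCE1 exon differed by -12 points with sgGPATCH8, but by 10 with sgRenilla and 4.25 with sgSUGP1. The BRD9 and SMARCD3 events kept their sign with both of these guides. Of 78 events of G-patch genes 1 was called (1.28%), in SUGP1 itself, where the isoform of its upstream 3′ splice site fell to 0.5% and 0% in K700E libraries, against 10.5% and 7.5% in WT libraries (adjusted p = 0.037 by limma). Of 178 events of SR and hnRNP proteins 2 were called (1.12%), both in TRA2A, a splicing regulator whose exon inclusion was 20.5% and 19.5% in K700E libraries, against 8% and 6.5% in WT libraries. DNA repair genes had 2 calls of 214 events (0.935%, GEN1 and RAD52), NF-κB genes 1 of 127 (0.787%, MAP3K7) and mitotic checkpoint genes 1 of 78 (1.28%, BUB1B). With 1 or 2 calls each, these shares are near that over all events. No event passed the limma threshold among 79 of U2 snRNP and branch point factors, 56 of nonsense-mediated decay and 76 of the erythroid membrane skeleton. The median difference of each of these lists lay between -1 and 0.5 points.

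As a class, tandem 3′ UTR events stood apart from the other event types. Some single calls of other types showed the same signs. The retained introns of FAM76B and PRPF38B differed by -25.75 and -26.25 points with sgGPATCH8, against 25.5 and 24 points with sgRenilla. Of 2070 tested, 92 fell in K700E cells (4.44%) and 1 rose, and the median of all of them was -6.75 points. The fall of the 92 was -37.5 points at the median in run 2 and -6.5 points in run 1. Median usage of the shorter 3′ UTR over all such events was 44%, 42%, 42% and 42% in the K700E sgGPATCH8 runs, against 47% in both WT sgGPATCH8 libraries in run 1 and 58% and 61% in run 2. The sgRenilla pair had 41% in K700E against 47% in WT cells in run 1, and 65% in K700E against 43% in WT cells in run 2. Averaged over its runs, the 92 events had a median difference of 17 points. The part of the sequencing run in these calls was not tested, but the medians of the other event types moved by at most 3 points among the 8 sgGPATCH8 runs.

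**Figure D4:**
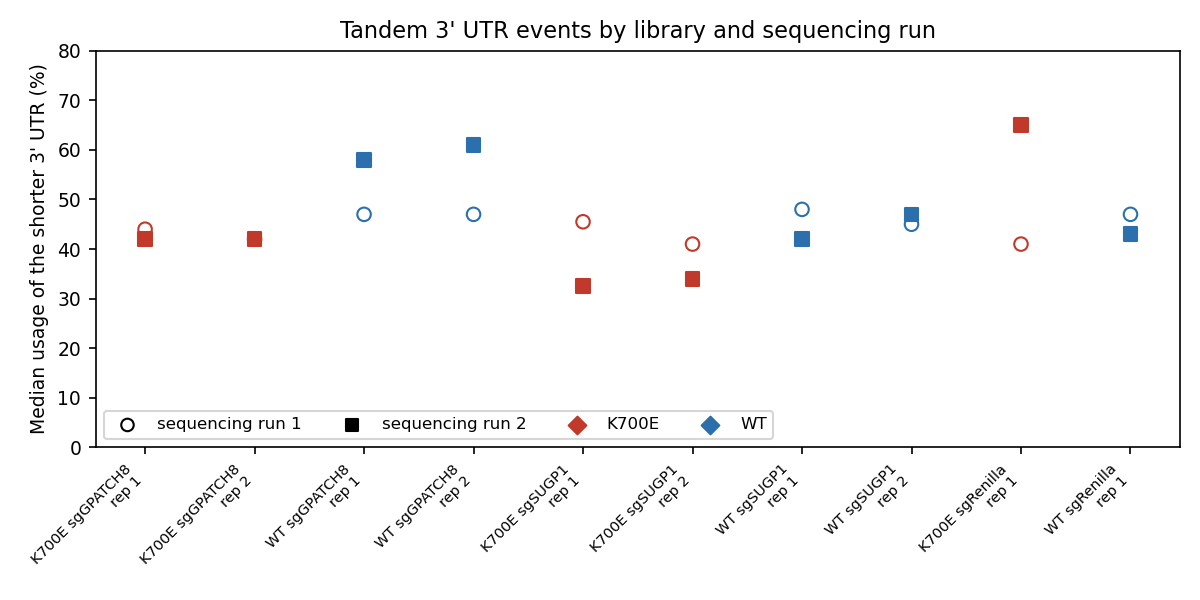
Median usage of the shorter 3′ UTR, in percent, over all tested tandem 3′ UTR events (y axis), in each library of K700E (red) and WT (blue) cells (x axis); open circles are sequencing run 1 and filled squares run 2. Run 2 stands at 58% and 61% in the WT sgGPATCH8 libraries and at 65% in the K700E sgRenilla library, against 32.5% to 47% for run 2 elsewhere.

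TFRC shows the pattern in a single gene: its shorter 3′ UTR was listed at 0% in all 4 K700E runs and in both WT runs of run 1, and at 18% and 20% in the WT libraries in run 2. HEATR1, a ribosome biogenesis factor, differed in both runs, with usage of at most 2% in K700E libraries, against 38% to 49% in WT libraries. The single rise, in SLC2A4RG, a regulator of the glucose transporter gene SLC2A4, was also present in both runs and in the sgRenilla pair. It stood at 48% and 54.5% in K700E libraries, against 4.5% and 10.5% in WT libraries, and the sgRenilla libraries had 53.5% in K700E and 5% in WT cells.

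The K700E effect with sgGPATCH8 was also tested directly against that in the other guides. Against sgRenilla 15 of 50823 events were called (0.0295%), 14 of them tandem 3′ UTRs and 1 an exon of DNAJC2, a ribosome-associated chaperone, while 4842 events had an unadjusted p under 0.05. Against sgSUGP1 2 events were called (0.00394%), both overlapping exon events of FTH1, the ferritin heavy chain, with 5044 at an unadjusted p under 0.05. Both genes differed between runs. In run 1 the DNAJC2 exon was included at 97% and 98% in the WT sgGPATCH8 libraries, against 77% and 75% in run 2, and FTH1 stood at 100% in every sgGPATCH8 library in run 1, against 26% to 44% in run 2. With 1 sgRenilla library per genotype, the spread of that group was taken from the other groups.

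Marker genes of the cell line gave values where the fractions allow it. All 11 K562 marker genes with an event, among them GATA1, TAL1 and BCR, had values in the 4 libraries, in 73 of 75 events, against 16 of 65 events of lymphoid and 16 of 42 of epithelial or fibroblast markers. Events had a value in 72.4% to 75.7% of cases per run, and the median difference between a library's runs was 4 to 5 points. The reads behind each fraction are not in the files used here, so the depth is unknown, and no counting interval or detection limit was computed.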

How the data were processed

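The deposited file gave, per the labels' columns and the values, a fraction for each splicing event, the share of the isoform listed first, from 0 to 1 with 2 decimals. The authors used TopHat, TopHat2 2.0.8b, Bowtie and RSEM 1.2.4 with hg19 (GRCh37), per the submitters' processing notes. How reads became fractions, and when a value is missing, is not given in the sources used here. Libraries were strand-specific and made from polyadenylated RNA, per the labels' protocols. The depth per sample is unknown.

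The 2 runs of a library were averaged. Events with a value in all 10 libraries and with some group mean of at least 5% and some of at most 95% were tested (50823 of 110816 with coordinates). The log2 ratio of the fraction to its remainder, each with an offset of 0.01, was fitted in R 4.3.3 by limma 3.58.1, with a mean per group and a trended prior variance. An event was called at a Benjamini-Hochberg adjusted p under 0.05 over all tested events and a difference of at least 5 points. The differences between guides were contrasts of the same fit, which was also tested on simulated data. Names came from GENCODE 29 (GRCh38) introns of the same chromosome, strand and exact length with a build shift shared by neighbouring events, which named 96.7% of events. No coordinate was converted.

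Named were the 12 largest rises and 12 largest falls outside tandem 3′ UTRs, 1 per gene, the 2 largest tandem 3′ UTR changes each way, the event of lowest p in each target gene (up to 20) and heme gene (up to 8), up to 3 called events of every other list, and up to 3 calls each way of each test between guides. SMARCE1, ANKHD1, ARMC9 and ENOSF1 and further events of named genes lie outside that rule and were chosen after their values were seen. The comparison and the gene lists were chosen with earlier results of these data known. Alternatives tried were other offsets, single runs, runs as separate columns, guide as a block, fewer libraries, other limits on missing values and group means, no tandem 3′ UTRs, untransformed fractions and no variance trend.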

Additional observations from a re-analysis of the deposited data

Results flagged for a closer look

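Effects of K700E that differed between the guides by a test of the difference were few. Against sgRenilla their number was 15. The K700E effect on the DNAJC2 exon was 30.25 points higher with sgGPATCH8 (adjusted p = 0.034 by limma), and those on the tandem 3′ UTRs of TMEM158, ATP6AP2 and IQGAP2 were lower, with differences of -60, -60 and -62.5 points (adjusted p = 0.031, 0.034 and 0.014 by limma). In IQGAP2, usage of the shorter 3′ UTR was 3% and 3.5% in K700E libraries, against 39% and 33.5% in WT libraries with sgGPATCH8, and 38% in K700E against 8.5% in WT cells with sgRenilla. Its WT sgGPATCH8 runs had 19% and 9% in run 1 and 59% and 58% in run 2.

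Against sgSUGP1 the number was 2, both exon events of FTH1 that share a junction, with differences of -38.25 and -36.75 points (adjusted p = 0.029 each by limma). The exon of the first was included at 63% and 64.5% in K700E sgGPATCH8 libraries, against 68.5% and 70% in WT sgGPATCH8 libraries, and at 100% in both K700E sgSUGP1 libraries, against 64.5% and 70% in WT sgSUGP1 libraries. The part of the sequencing run in these differences was not tested, and no other call against sgSUGP1 was made. Neither FTH1 event was called with an offset of 0.05, on the fraction itself or with runs as separate columns.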

How the results depend on the processing

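None of the 53 named events followed changed direction under the alternatives that gave them a value. In place of the 346 calls (156 up, 190 down), run 1 alone gave 6, all among the 346, run 2 alone 144, of which 82 are among them, and both runs as separate columns 828 (521 up, 307 down), of which 191 are. A fit without tandem 3′ UTR events kept 162 of the 253 other calls. With the guide as a replicate block, or with the 4 sgGPATCH8 libraries alone, limma called 0 events, with 7921 and 7421 at an unadjusted p under 0.05. The difference between guides 16 and 17, taken for each event, correlated between K700E and WT at 0.0184 over all tested events. The guide number thus showed almost no shared shift in the 2 genotypes. Leaving out 1 library at a time gave 0 to 0 calls. The 45 called among the named events were 4 in run 1, 18 in run 2 and 0 under the block, the 4 libraries or with any library left out (range 0 to 0), where their adjusted p was 0.095 to 0.3. The 15 differences from sgRenilla became 39 with an offset of 0.05, 6 with 0.001, 310 in run 2, 111 with no limit on group means and 133 on the fraction itself, and 0 in run 1, with runs separate, under the block, without tandem 3′ UTRs or with a library left out (0 to 0). The 2 differences from sgSUGP1 became 20 in run 2, 41 with runs separate and 50 with no limit on group means, and 0 in run 1, under the block or with a library left out (0 to 0). The 41, and the 2 called with an offset of 0.05 or on the fraction itself, hold neither FTH1 event. Why these counts moved was not tested. With depth unknown, low fractions cannot be weighed by their reads.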

Other observations

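Several named events lay in genes of other functions. Of the mutually exclusive exons of ESR1, the estrogen receptor alpha, the upstream one was used at 95.5% and 89% in K700E sgGPATCH8 libraries, against 46% and 40% in WT sgGPATCH8 libraries, with no value in run 1 for either WT library (adjusted p = 0.041 by limma). An exon of MARCH1, a membrane-bound ubiquitin ligase of immune cells, was included at 80% and 75% in K700E libraries, against 28.5% and 34% in WT libraries (adjusted p = 0.034 by limma), and the sgSUGP1 pair differed by 41 points. In the locus AC107959.5, a site 3 nucleotides upstream was used at 91% and 86.5% in K700E libraries, against 45% and 41% in WT libraries, again without WT values in run 1 and with guide 16 in K700E cells from run 1 only.

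An exon of SEMA4F, a semaphorin, fell to 22% and 19% in K700E libraries, against 64% and 62% in WT libraries (adjusted p = 0.015 by limma). The first WT value came from run 1 only and the second from run 2 only. The sgRenilla pair had 24% in K700E and 27% in WT cells. With sgSUGP1 the exon also fell, with 20.5% and 19% in K700E libraries, against 53% and 54% in WT libraries. In TRA2A the upstream of 2 mutually exclusive exons rose to 63.5% and 62.5% in K700E libraries, against 39% and 35.5% in WT libraries, and the sgRenilla pair, at lower levels, had 35.5% in K700E and 10.5% in WT cells. In GSN the upstream of 2 mutually exclusive exons fell to 19.5% and 17% in K700E libraries, against 77.5% and 65% in WT libraries. The tandem 3′ UTR of COL4A5, a basement membrane collagen, had 7% and 11% of the shorter form in K700E libraries, against 43% and 64.5% in WT libraries.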
